A study of Bos taurus with 12 samples.

Results

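The genes described here make the fatty acids that the cow mammary gland (MG) builds itself, together with the SREBP1 system that controls them. A list of 10 genes was examined. They were found on the array through the RefSeq accession that each probe carries. A total of 9 genes matched 32 probes, out of 12639 named genes and 43653 non-control probes. FASN, the fatty acid synthase itself, could not be matched and was not analysed here. The cows were multiparous Holsteins in early lactation (24 ± 3 days in milk). The 6 REST cows were underfed for 4 d, with barley straw making up 48% of the dry matter of their ration. The 6 CONT cows had free access to their usual lactation feed. All 12 cows, CONT included, received 50 µg of LPS in 1 rear gland of the udder on d 3, and the biopsy was taken 24 h later. No unchallenged gland was on the arrays, so every value describes MG after LPS. Each cow was measured on 1 single-color Agilent array.

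In ruminants, the mammary epithelium builds short and medium chain fatty acids mostly from acetate. ACSS2 activates acetate to acetyl-CoA, and ACLY makes acetyl-CoA from citrate. ACACA converts acetyl-CoA to malonyl-CoA, the committed step, and FASN joins the units into chains. SCD then introduces a double bond, and ELOVL6 lengthens chains of palmitate size. SREBF1 encodes the transcription factor SREBP1. SCAP carries the inactive precursor from the endoplasmic reticulum to the Golgi for cleavage, and INSIG1 holds SCAP back. THRSP (Spot 14) is a small protein of lipogenic tissues that is linked to fatty acid synthesis.

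A value below is the log2 of the background-corrected spot signal minus the 75th percentile of its array, and a gene is represented by its probe with the highest mean signal. Probe brightness differs between probes, so levels were compared between cows and never between genes. A log2 fold change (FC) is the mean of REST minus the mean of CONT. The 75th percentile signal was 577.1 to 1183.9 in CONT and 386.9 to 1082.0 in REST. Between 57.57 and 78.14% of probes were well above background. The arrays lay on 3 slides. Slide 1 held 3 CONT cows and 1 REST cow, slide 2 held 1 and 3, and slide 3 held 2 of each. Negative control spots were brighter on slide 1 (37.73 to 58.19) than on the other slides (17.43 to 19.96). On all 12 arrays, 25 of the 32 probes exceeded the background call of Feature Extraction ("well above background" hereafter), and 0 of their spots were saturated.

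No gene of the list passed the test for a difference between diets. With limma, 0 of 9 genes passed the Westfall-Young or the Benjamini-Hochberg threshold of 0.05, as did 0% of all named genes. None of the 9 had an unadjusted p under 0.05, whereas 2.64% of the named genes did. Among the 32 probes, 0 had an unadjusted p under 0.05, beside 2.62% of all probes. The groups overlapped for all 9 genes and 32 probes, while 0.15% of named genes and 0.128% of all probes had groups that did not overlap. The mean was higher in REST for ACACA and SREBF1 and lower for the other 7. Across the array, 56.5% of named genes and 53.9% of probes had a lower mean in REST. The median FC over the list was -0.19, and that over all named genes was -0.034. The signs of ACACA and SREBF1 turned with slide as a block, and those of SCD, ACSS2 and SREBF1 turned without single cows. The plot of FC by gene shows intervals that span 0 throughout. Several genes of the list varied widely between cows of 1 group.

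**Figure D1:**
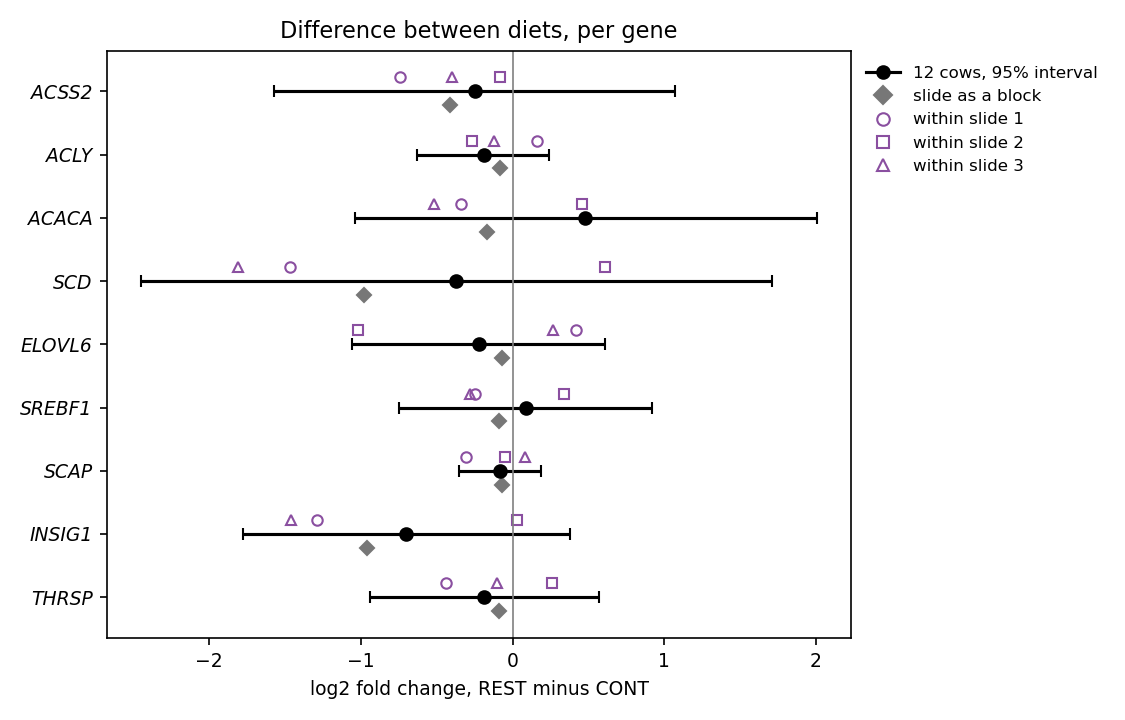
Log2 FC (REST minus CONT) of each gene on the x axis. Black points with bars give the estimate over 12 cows with its 95% interval, gray diamonds the estimate with slide as a block, and open symbols the difference of means within each slide. Every 95% interval includes 0, from SCAP with the narrowest (-0.35 to 0.19) to SCD with the widest (-2.45 to 1.71).

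The supply of acetyl-CoA was represented by ACSS2 and ACLY. For ACSS2 (NM_001105339), the CONT cows read 3.69 (cow 9040), 3.67 (1076), 3.84 (0015), 4.47 (1024), 2.46 (0055) and 0.89 (8027). The REST cows read 2.79 (cow 0078), 3.77 (0049), 1.16 (1018), 2.96 (7043), 4.08 (1015) and 2.75 (1058). One cow of each group, CONT 8027 and REST 1018, lay far below the others, and the remaining ranges overlapped. The means were 3.17 ± 1.29 in CONT and 2.92 ± 1.02 in REST (SD over 6 cows). The FC was -0.25 (SE 0.61, 95% interval -1.57 to 1.07), with an exact permutation p of 0.697. A second, dimmer ACSS2 probe followed the first across cows (r = 0.92) and had an FC of 0.07. With slide as a block the FC of ACSS2 was -0.41 (SE 0.57).

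ACLY (NM_001037457), the citrate lyase, varied much less. It ranged from 1.06 to 2.15 (median 1.6) in CONT and from 1.08 to 1.81 (median 1.33) in REST. The cow with the lowest ACSS2, CONT 8027, had the highest ACLY. The means were 1.61 ± 0.36 and 1.41 ± 0.30, and the FC was -0.19 (SE 0.20, exact permutation p = 0.331). The probes of ACLY did not give 1 picture. The second bright probe followed the first (r = 0.95), while the 2 dimmer probes ran against it (r = -0.69 and -0.43). All 4 gave an FC between -0.19 and 0.00. The brightest gave -0.08 (SE 0.22) with slide as a block.

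ACACA (NM_174224), which makes malonyl-CoA, was the only matched gene of chain synthesis. The CONT cows read -1.1 (cow 9040), -2.61 (1076), -0.48 (0015), -1.62 (1024), -3.44 (0055) and -3.83 (8027). The REST cows read -2.90 (cow 0078), 0.32 (0049), -3.27 (1018), -1.68 (7043), -0.57 (1015) and -2.08 (1058). Each group held cows near the bottom and near the top of the range, which spanned 17.8-fold over the 12 cows. The means were -2.18 ± 1.33 in CONT and -1.70 ± 1.37 in REST. The FC was 0.48 (SE 0.70, 95% interval -1.04 to 2.01, exact permutation p = 0.543). The other 2 ACACA probes gave an FC of 0.36 and 0.33 and correlated with the first at 0.93 and 0.94. With slide as a block the FC was -0.17 (SE 0.63). Within slides 1 and 3 it was -0.34 and -0.52, and within slide 2, which held 3 of the 6 REST cows, 0.46. Single cows moved it widely, to 0.08 without REST cow 0049, 0.15 without CONT cow 8027 and 0.82 without CONT cow 0015.

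SCD (NM_173959), the stearoyl-CoA desaturase, had the largest spread of the list. The CONT cows read 7.93 (cow 9040), 7.86 (1076), 8.93 (0015), 8.06 (1024), 6.32 (0055) and 4.48 (8027). The REST cows read 5.95 (cow 0078), 9.26 (0049), 3.85 (1018), 7.31 (7043), 9.04 (1015) and 5.94 (1058). The highest and the lowest cow of all 12, 0049 and 1018, were both REST cows, and they differed 42.5-fold in signal. The means were 7.26 ± 1.60 in CONT and 6.89 ± 2.07 in REST, an FC of -0.37 (SE 0.96, exact permutation p = 0.734). Without REST cow 1018 the FC was 0.23. All 7 SCD probes followed the brightest across cows (r = 0.95 to 1.00) and had an FC of -0.37 to -0.14. Within slides 1, 2 and 3 the FC was -1.47, 0.61 and -1.81, and with slide as a block it was -0.98 (SE 0.84).

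ELOVL6 (NM_001102155), the elongase of palmitate, ranged from -3.24 to -1.22 (median -1.80) in CONT and from -3.24 to -1.26 (median -2.33) in REST. Its lowest cows were CONT 0015 and REST 0049, both at the upper end for SCD. The means were -2.01 ± 0.71 and -2.23 ± 0.72, and the FC was -0.22 (SE 0.39, exact permutation p = 0.606). It was 0.42, -1.02 and 0.27 within slides 1, 2 and 3, and -0.07 (SE 0.44) with slide as a block. Its next 2 probes, well above background in every cow, gave an FC of -0.24 and 0.27, so the sign was not shared. The remaining 2 were so in 2 CONT cows each and in 0 and 1 REST cows.

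**Figure D2:**
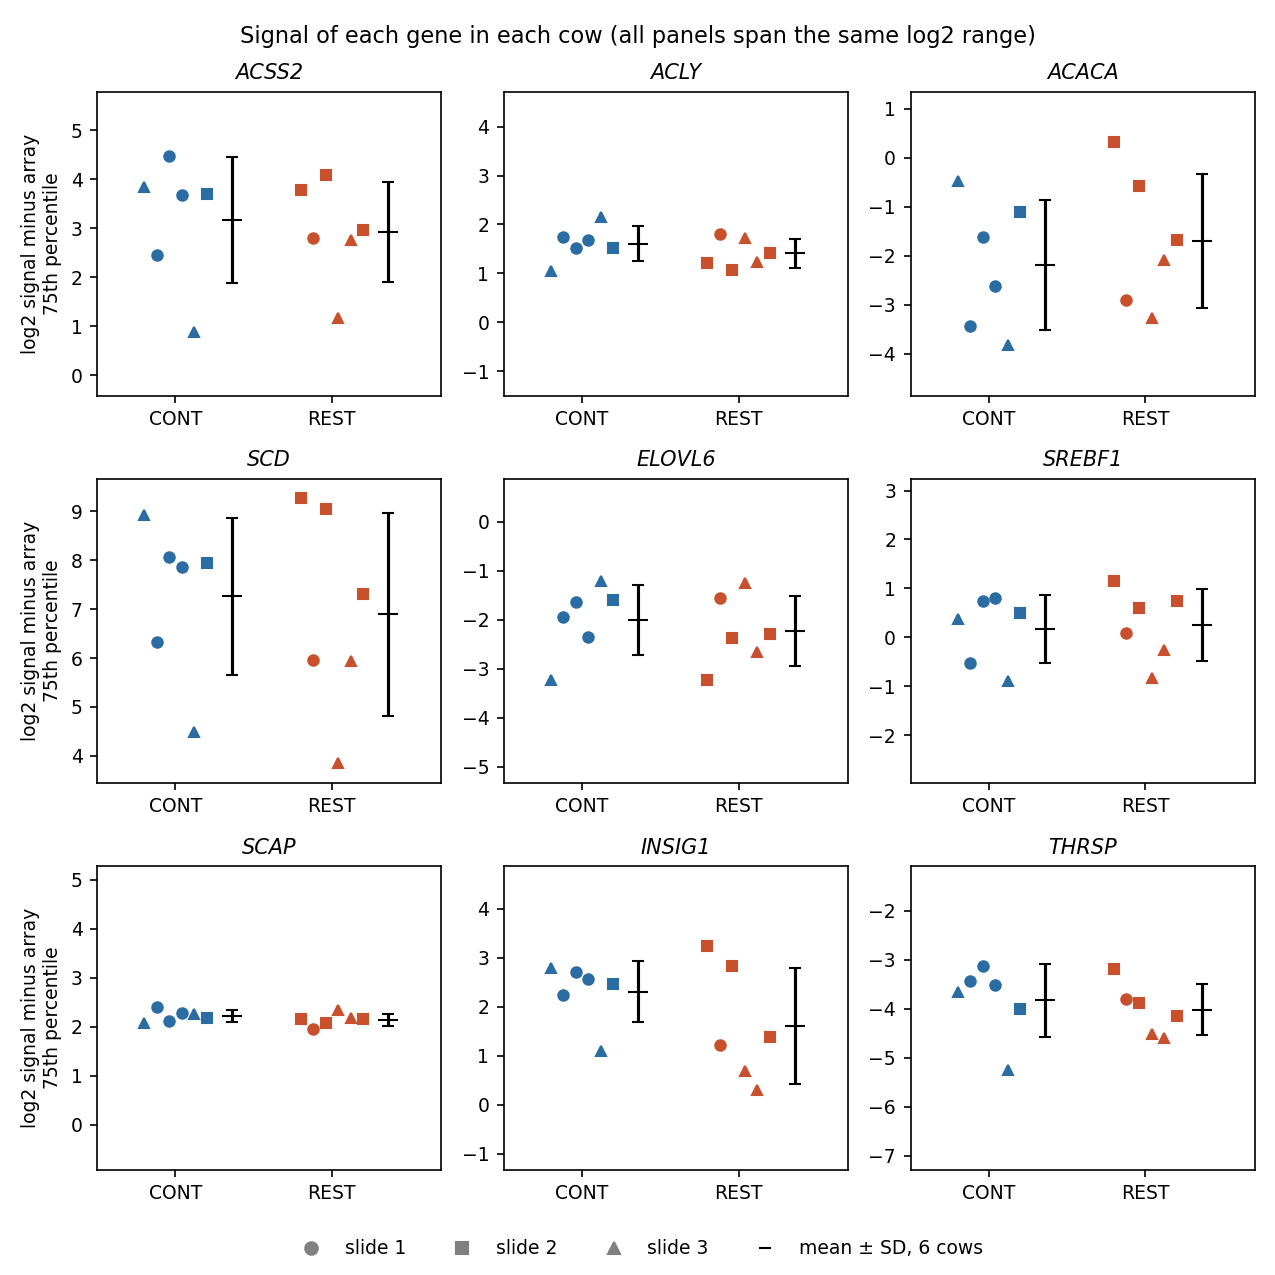
Log2 signal minus the array's 75th percentile (y axis) of each gene in each of the 12 cows, by group. Symbols mark the slide, black bars the mean ± SD of 6 cows, and every panel spans the same number of log2 units, so that SCD (3.85 to 9.26) fills its panel while SCAP (1.96 to 2.40) does not.

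SREBF1 (NM_001113302), the gene of SREBP1, ranged from -0.88 to 0.80 (median 0.43) in CONT and from -0.83 to 1.15 (median 0.35) in REST. The lowest cow in CONT was 8027 and in REST 1018, as for SCD. The means were 0.17 ± 0.70 and 0.25 ± 0.73. The FC was 0.09 (SE 0.38, 95% interval -0.75 to 0.92, exact permutation p = 0.831), and a second probe gave 0.07 (r = 0.98 with the first). Differences within that interval were not excluded by these 6 cows per group. The RNA level does not tell how much SREBP1 was cleaved.

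INSIG1 (NM_001077909), which retains SCAP in the endoplasmic reticulum and is itself a target of SREBPs, had the lowest p-value of the list. The CONT cows read 2.46 (cow 9040), 2.56 (1076), 2.80 (0015), 2.72 (1024), 2.24 (0055) and 1.1 (8027). The REST cows read 1.22 (cow 0078), 3.25 (0049), 0.69 (1018), 1.39 (7043), 2.83 (1015) and 0.30 (1058). In CONT 5 of 6 cows lay close together, whereas REST held 4 cows at or below 1.39 and 2 above every CONT cow. The means were 2.31 ± 0.63 and 1.61 ± 1.18, an FC of -0.70 (SE 0.50, 95% interval -1.78 to 0.38). The unadjusted limma p was 0.185, the exact permutation p was 0.223, and both adjusted p-values were 1. The second probe of INSIG1 gave -0.25 (SE 0.37). With slide as a block the FC was -0.96 (SE 0.43), and without REST cow 0049 it was -1.03. In both fits the unadjusted limma p fell below 0.05 (0.0476 and 0.0389) and both adjusted p-values remained 1. Within slides 1 and 3 the FC was -1.29 and -1.46, and within slide 2 it was 0.03.

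SCAP (NM_001101889), the escort of SREBPs, was the steadiest gene of the list. It lay between 2.07 and 2.40 in CONT and between 1.96 and 2.33 in REST, a span of 1.4-fold over the 12 cows. The FC was -0.08 (SE 0.13, 95% interval -0.35 to 0.19, exact permutation p = 0.292). Its 2 other probes did not follow the first (r = -0.41 and 0.22) and varied more, with a within-group SD of 0.54 and 0.67 against 0.12.

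THRSP (NM_001040533) gave weak signal. Its brightest probe was well above background in 6 CONT and 5 REST cows, and its other 3 probes in at most 2 cows of a group. The brightest probe ranged from -5.24 to -3.13 (median -3.59) in CONT and from -4.59 to -3.18 (median -4.02) in REST. CONT cow 8027 was again the lowest of all. The FC was -0.19 (SE 0.35, exact permutation p = 0.628), and -0.09 (SE 0.30) with slide as a block. The lowest unadjusted limma p among the 32 probes, 0.0843, belonged to a THRSP probe that was well above background in 1 CONT and 0 REST cows, so no fold is given for it.

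The spread between cows of 1 group was wide for several of these genes. Over the 9083 named genes whose probe exceeded background on every array, the median within-group SD was 0.33 and the 90th percentile was 0.75. SCD had an SD of 1.85, above 99.7% of these genes. ACACA (1.35) lay above 98.5%, ACSS2 (1.16) above 97.4% and INSIG1 (0.94) above 95%. These 4 genes lay past the 90th percentile. SREBF1 (0.71) and ELOVL6 (0.72) followed, with 88.4% and 88.6% of genes below them. ACLY (0.33) lay at 48.8%, and SCAP (0.12) at 1.6%. No test was made of these ranks.

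**Figure D3:**
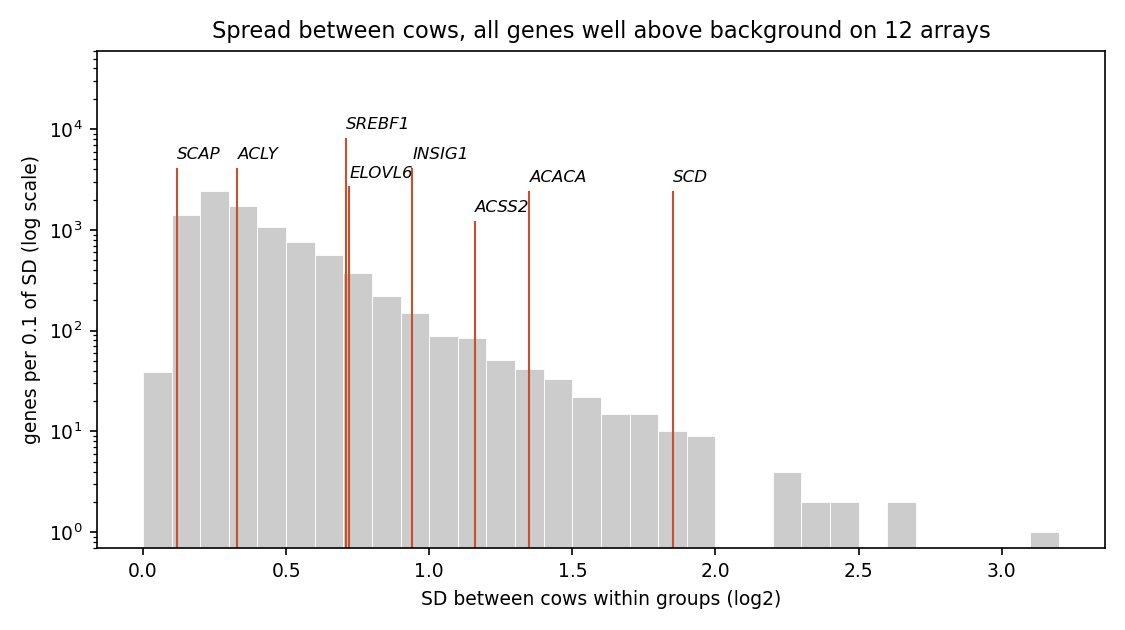
Histogram of the within-group SD between cows (log2 units, x axis) over 9083 named genes above background on every array, with the number of genes on a log y axis. Red lines mark 8 genes of the list: SCD lies at 1.85 and SCAP at 0.12, around a median over all genes of 0.33. THRSP is not drawn because its probe was above background on 11 arrays.

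The variable genes shared much of their order of cows. Correlations were computed over the 12 cows for the 36 pairs of genes, with permutation p-values adjusted by Benjamini-Hochberg over the pairs. In 20 pairs Pearson's r had an adjusted p under 0.05, and in 18 of these Spearman's rho did as well. By rho the closest pair was SCD and INSIG1 (0.97). By r it was SCD and ACSS2 (r = 0.93, permutation p = 7e-05, adjusted 0.00173; rho = 0.91, p = 0.00016, adjusted 0.00225). Without REST cow 1018 and CONT cow 8027, the cows farthest from the median of SCD, r was 0.83. Within CONT it was 0.95 and within REST 0.96, and after removing group and slide means 0.92.

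SCD also correlated with ACACA (r = 0.88, permutation p = 0.0002, adjusted 0.00173; rho = 0.89, p = 0.00025, adjusted 0.00225). Without the same 2 cows r was 0.85, and after group and slide 0.95. For SCD and SREBF1, r was 0.89 (permutation p = 0.0002, adjusted 0.00173) and rho 0.77 (p = 0.00484, adjusted 0.0206). Here r was 0.77 without the 2 cows and 0.85 after group and slide. For SCD and INSIG1, r was 0.87 (permutation p = 0.00035, adjusted 0.0021) and rho 0.97 (p = 1e-05, the smallest the resampling can give, adjusted 0.00036). Without the 2 cows r was 0.86, and after group and slide 0.82. For ACSS2, ACACA, SCD, SREBF1 and INSIG1 alike, REST cow 1018 and CONT cow 8027 were among the 3 lowest cows, and REST cows 0049 and 1015 among the 5 highest.

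**Figure D4:**
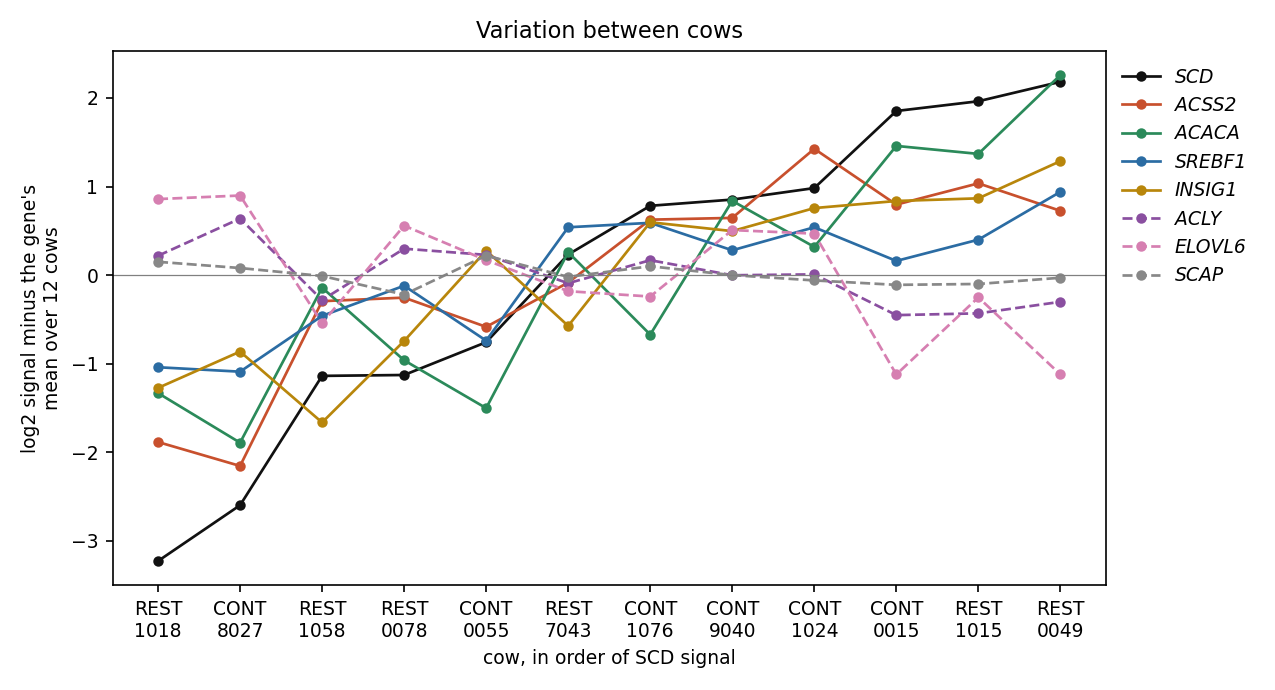
Log2 signal of 8 genes minus each gene's mean over 12 cows (y axis), with cows on the x axis in the order of their SCD signal. SCD, ACSS2, ACACA, SREBF1 and INSIG1 (solid lines) climb from REST cow 1018 to REST cow 0049, while ACLY and ELOVL6 (dashed) descend and SCAP (dashed gray) stays near 0. REST and CONT cows are interleaved.

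ACLY and ELOVL6 ran the other way. ACACA and ACLY had an r of -0.88 (permutation p = 0.00024, adjusted 0.00173) and a rho of -0.90 (p = 0.00025, adjusted 0.00225). Without REST cow 0049 and CONT cow 8027 r was -0.86. ACLY and ELOVL6 correlated positively with each other (r = 0.82, permutation p = 0.00132, adjusted 0.00679; rho = 0.86, p = 0.00072, adjusted 0.00432), and r was 0.72 without CONT cows 8027 and 0015. The direction for ACLY depended on the probe. Its 2 bright probes had an r of -0.75 and -0.77 with SCD, and its 2 dim probes 0.73 and 0.54. The 3 brightest ELOVL6 probes had an r of -0.71, -0.68 and -0.67 with SCD. SCAP was split as well, with -0.44 for the brightest probe and 0.83 and 0.09 for the others. All probes of ACSS2, ACACA, SREBF1 and INSIG1 had an r of 0.84 to 0.93 with SCD.

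THRSP was positively related by r to INSIG1, SCD, ACSS2 and SREBF1. Its r with INSIG1 was 0.78 (permutation p = 0.00272, adjusted 0.0102; rho = 0.73, p = 0.00933, adjusted 0.0292), 0.72 without REST cows 1058 and 1018 and 0.85 after group and slide. With SCD r was 0.72 (permutation p = 0.00844, adjusted 0.0203; rho = 0.66, p = 0.0232, adjusted 0.0465), 0.46 without CONT cow 8027 and REST cow 1018 and 0.80 after group and slide. For ACSS2 (r = 0.78) and SREBF1 (r = 0.70) the adjusted p was under 0.05 by r (0.0108 and 0.0223, permutation) and not by rho (0.62, adjusted p = 0.0643; 0.58, adjusted p = 0.0837), and r fell to 0.47 and 0.39 without those cows. With ACACA r was 0.50 (permutation p = 0.099, adjusted 0.137; rho = 0.40, p = 0.204, adjusted 0.237), 0.08 without REST cow 0049 and CONT cow 8027 and 0.88 after group and slide. SCAP had an adjusted p above 0.05 with every other gene, by r and by rho. Quantile normalization moved no r by more than 0.18 and turned the sign of 0 pairs.

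**Figure D5:**
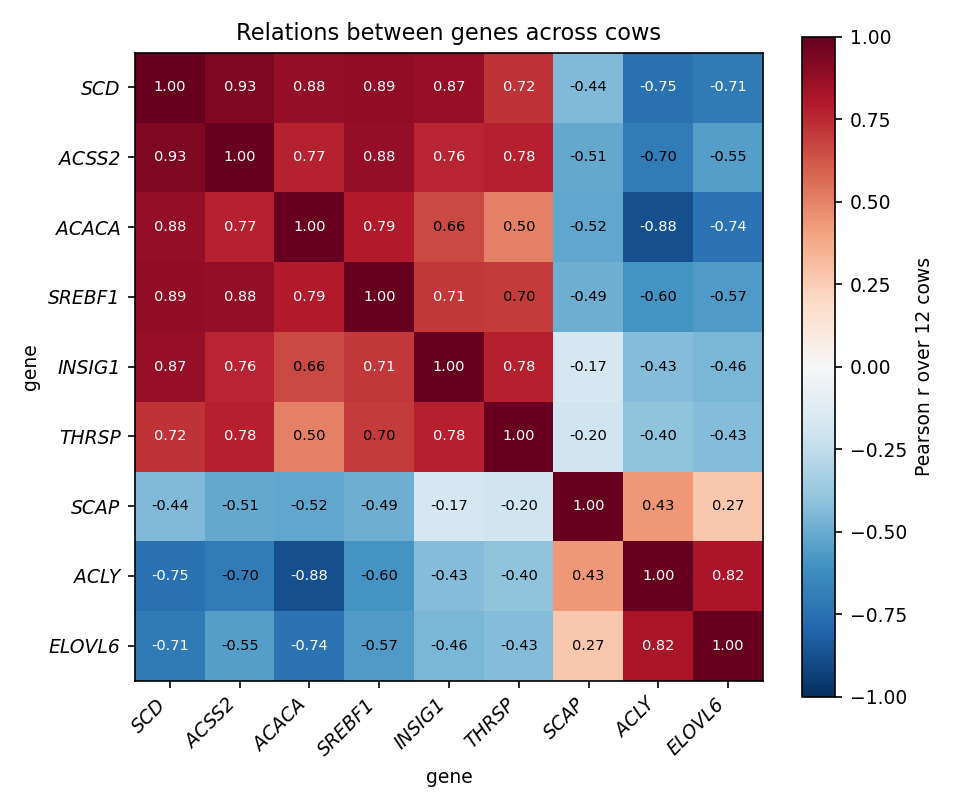
Pearson's r over 12 cows for each pair of the 9 genes (both axes), from -1 (blue) to 1 (red). SCD, ACSS2, ACACA, SREBF1, INSIG1 and THRSP form a block of positive values (0.50 to 0.93), which is negative with ACLY (-0.40 to -0.88) and ELOVL6.

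This shared variation reached far beyond the list. Among 8993 other genes above background on every array, 794 (8.83%) had an r with SCD of at least 0.8 and 484 (5.38%) of at most -0.8. With SREBF1 these were 511 (5.68%) and 287 (3.19%). The genes most like SREBF1 were PTPRCAP (r = 0.965), STX10 (0.956), DHRS11 (0.942), FOLR1 (0.940) and ZNF750 (0.932), over 12 cows. PTPRCAP is known as a partner of a leukocyte phosphatase, and FOLR1 as a folate receptor. For SCD, chosen in place of FASN after the values were seen, the most alike were DNAJC12 (0.982), LPL (0.982), PIK3C3 (0.979), SDC2 (0.977) and NEUROD1 (0.973). LPL, the lipase that releases fatty acids from blood lipoproteins, had an FC of -0.93 (SE 1.29) and a range of 7.18 log2 units.

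Levels of secretory epithelial markers were related to 6 of the 9 genes by Pearson's r and to 2 by rho. In bulk tissue, fewer cells of a type and less RNA per cell cannot be told apart. Of 12 secretory epithelium markers 11 were matched and well above background, and their summed linear signal, in multiples of the array's 75th percentile, ran from 1720 to 5240 in CONT and 2460 to 6970 in REST. Of the 11, 9 had a higher and 2 a lower mean in REST, with a median FC of 0.309. Across 54 relations of 9 genes with 6 marker lists, 10 had an adjusted p under 0.05 for r (6 with epithelial, 3 with fibroblast and 1 with adipocyte markers) and 3 for rho (2 with epithelial and 1 with fibroblast markers). The mean epithelial marker level correlated with SCD (r = 0.83, permutation p = 0.00098, adjusted 0.0169; rho = 0.71, p = 0.0128, adjusted 0.0941), and r was 0.64 without CONT cow 8027 and REST cow 1018. With ACSS2, r was 0.73 (permutation p = 0.00769, adjusted 0.0463; rho = 0.55, p = 0.0671, adjusted 0.251) and fell to 0.22 without those cows, so this relation rested on them. With SREBF1, r was 0.75 (permutation p = 0.00606, adjusted 0.0463; rho = 0.72, p = 0.011, adjusted 0.0941) and fell to 0.43 without the same cows. With ACLY, r was -0.88 (permutation p = 0.00014, adjusted 0.00756; rho = -0.85, p = 0.00084, adjusted 0.0169) and -0.80 without them. With ACACA, r was 0.82 (permutation p = 0.00125, adjusted 0.0169) and rho 0.78 (p = 0.00479, adjusted 0.0647). Without those cows r was 0.72. With ELOVL6, r was -0.84 (permutation p = 0.00071, adjusted 0.0169) and rho -0.87 (p = 0.00053, adjusted 0.0169). Without those cows this r was -0.77.

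No gene of the list passed by r or rho with the leukocyte, myoepithelial or endothelial markers. After removing group and slide means, which was a description with no test, the myoepithelial level had an r of -0.84 with SCD, -0.84 with ACSS2 and -0.82 with SREBF1 (-0.66, -0.69 and -0.65 before). The adipocyte level then had an r of 0.89 with SCD, 0.85 with ACACA, -0.94 with ACLY and -0.91 with ELOVL6 (0.52, 0.41, -0.58 and -0.63 before). For the epithelial level these were 0.84, 0.73, -0.91 and -0.92. Adipocyte markers were matched for 6 of 8 genes, of which 2 were well above background in every cow of at least 1 group. The adipocyte level in these r values is the unweighted mean log2 signal of the 6, so markers near background count in full. The summed signal of the 6 markers, of which FABP4 made up 79.4 to 99.0%, was 9.19 to 166 in CONT and 102 to 248 in REST. Of the 6, 5 had a higher mean in REST, with FABP4, a fatty acid binding protein, highest (5.92 ± 1.59 in CONT and 7.13 ± 0.48 in REST, FC 1.20, SE 0.62). Without CONT cow 8027 the FC of FABP4 was 0.59 (SE 0.31). The mean log2 level over the 6 markers was -2.75 in that cow and -2.42 in CONT cow 9040. Leptin (LEP), above background in 4 CONT cows and 1 REST cow, was the only one with a lower mean. Leukocyte markers (8 of 10 matched) summed to 11.3 to 49.6 in CONT and 7.69 to 74.8 in REST. Their mean level had an r of -0.65 with INSIG1 (permutation p = 0.0235, adjusted 0.0762; rho = -0.68, p = 0.0186, adjusted 0.1), and r was -0.33 without REST cows 0049 and 1058. This r was -0.97 within REST and 0.25 within CONT, and the difference between the 2 was not tested.

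Among stromal and vascular markers some single genes had low unadjusted p-values. The 6 fibroblast markers summed to 49.5 to 66.9 in CONT and 23 to 69.4 in REST, with a median FC of -0.626. In 3 of them the unadjusted limma p was under 0.05, namely lumican (LUM, FC -0.84, exact permutation p = 0.00866), COL1A2 (-0.65, p = 0.0325) and COL1A1 (-0.72, p = 0.0649). The share over all named genes was 2.64%, and PDGFRA had a slightly higher mean in REST (FC 0.04, SE 0.36). The mean fibroblast level had an r of -0.73 with ACACA (permutation p = 0.00602, adjusted 0.0463; rho = -0.70, p = 0.0149, adjusted 0.0941), and -0.44 without REST cows 0049 and 1015. With ACLY, r was 0.73 (permutation p = 0.00696, adjusted 0.0463) and rho 0.85 (p = 0.00094, adjusted 0.0169). With ELOVL6, r was 0.71 (permutation p = 0.00858, adjusted 0.0463) and rho 0.74 (p = 0.008, adjusted 0.0864). Without the same cows r was 0.69 for ACLY and 0.61 for ELOVL6. The 5 endothelial markers summed to 2.42 to 9.85 in CONT and 7.67 to 13.4 in REST, and VWF, 1 of the 5 with an unadjusted limma p under 0.05, had an FC of 0.79 (exact permutation p = 0.00433), which was 0.50 (SE 0.18) without CONT cow 8027. All 5 had a higher mean in REST, with a median FC of 0.498. With slide as a block, COL1A1 was at -0.39 (SE 0.28) and COL1A2 at -0.45 (SE 0.27). In the same fit LUM was at -0.83 (SE 0.28) and VWF at 0.90 (SE 0.32). The 5 myoepithelial markers summed to 39.2 to 138 in CONT and 38.4 to 79.3 in REST. All these genes had adjusted p-values of 1. Array brightness was compared with each of the 9 genes through the log2 of the array's 75th percentile. Every gene value has that same number subtracted. A negative relation is therefore partly built in, and the permutation p-values do not allow for it. For r, 3 genes had an adjusted p under 0.05 (ACACA, ACLY and ELOVL6), and for rho 1 (ACLY). For ACACA r was -0.81 (permutation p = 0.00158, adjusted 0.00985; rho = -0.71, p = 0.0127, adjusted 0.0574), and -0.64 without REST cows 0049 and 1015. For ACLY r was 0.80 (permutation p = 0.00219, adjusted 0.00985; rho = 0.77, p = 0.0051, adjusted 0.0459), and 0.76 without them. After removing group and slide means, r with brightness was -0.71 for ACACA and 0.72 for ACLY. It was larger in size than over all cows for THRSP (-0.36 before and -0.92 after), INSIG1 (-0.47 and -0.82), ACSS2 (-0.42 and -0.53), SCD (-0.61 and -0.70) and ELOVL6 (0.70 and 0.73). The values after group and slide were not tested. The part of cell types and array brightness in the relations was not tested.

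The wider pathway showed the same absence of calls. Of 73 further genes in 8 lists, 63 were matched, 0 passed either adjusted threshold, and 1 (1.59%) had an unadjusted p under 0.05, beside 2.64% of named genes. That gene was USF1, a factor that binds lipogenic promoters, at -1.35 ± 0.39 in CONT and -0.89 ± 0.25 in REST (FC 0.46, SE 0.20, exact permutation p = 0.0216). A total of 19 of the 63 had a higher mean in REST. The list medians lay between -0.264 and -0.004, beside -0.034 over all named genes.

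In the SREBP processing list, 7 of 8 matched genes had a lower mean in REST (median -0.103). SREBF2, which encodes SREBP2, had the highest FC of that list (0.31, SE 0.27), and ERLIN1, an endoplasmic reticulum protein that takes part in sterol control, the lowest (-0.26, SE 0.16). All 7 matched sterol-responsive targets of SREBP2 had a lower mean in REST (median -0.264), with none past an unadjusted 0.05. FDPS, an enzyme of the isoprenoid branch, had the highest FC of that list (-0.07, SE 0.23). HMGCS1, which condenses acetyl units early in cholesterol synthesis, was at 0.87 ± 0.39 in CONT and 0.37 ± 0.47 in REST (FC -0.50, SE 0.25, exact permutation p = 0.0736). INSIG1, whose mean was also lower, belongs to the same sterol-controlled set by background knowledge.

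NADPH is the reductant of fatty acid synthesis. Of its 6 supply genes 1 had a higher mean in REST, TALDO1 (0.10, SE 0.16), and the lowest was the cytosolic isocitrate dehydrogenase IDH1 (-0.31, SE 0.35), a main source of NADPH in ruminant MG. Among 5 genes of acetate and citrate supply, ACSS1, the mitochondrial counterpart of ACSS2, was at 5.28 ± 0.64 in CONT and 4.69 ± 0.33 in REST (FC -0.58, SE 0.28, exact permutation p = 0.0714). The monocarboxylate transporter SLC16A1 had the highest value there (0.12, SE 0.72). As a description over the 12 cows, SLC16A1 had an r of 0.97 with SCD, and the mitochondrial pyruvate carriers MPC1 and MPC2 had 0.95 and 0.93. The other 2 genes of that list, ACSS1 and the citrate synthase CS, had 0.36 and 0.29. Over all 63 pathway genes, 10 had an r with SCD of at least 0.8 and 4 of at most -0.8 (HACD3, NFYC, FBXW7 and ME1). Among the 8993 genes outside the list that were above background on every array, the shares were 8.83% and 5.38%.

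Among 7 genes that work beside the synthase, ACACB, the second acetyl-CoA carboxylase, was the highest (0.20, SE 0.34) and the acyl-CoA binding protein DBI the lowest (-0.48, SE 0.27). The other elongases and desaturases (13 matched, 4 with a higher mean) ran, among those well above background, from 0.20 (SE 0.23) for FADS3 to -0.35 (SE 0.31) for ELOVL5. Of 11 transcription factors 5 had a higher mean in REST. PPARG had the largest difference (0.64, SE 0.40) and NFYB, a subunit of NF-Y, the lowest (-0.26, SE 0.17). Of the 6 matched AMP-activated kinase subunits, which inhibit ACACA by phosphorylation as a complex, 3 had a higher mean and 2 were not well above background in any cow, with PRKAA2 at 0.30 (SE 0.32) and PRKAB1 at -0.05 (SE 0.34).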

How the data were processed

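Total RNA (100 ng) from MG biopsies of 12 cows was labeled with Cy3 and hybridized to bovine Agilent arrays. The authors extracted spot intensity with Feature Extraction 11.0.1.1, and the deposited values are background corrected but not normalized between arrays. Log2 intensity minus the array's 75th percentile was computed from non-control spots without outlier spots, averaged per probe. Probes were named by RefSeq accession (ARS-UCD2.0 table), and no positions are given because the array design used UMD 3.1.

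REST and CONT were compared with limma 3.58.1 (R 4.3.3), two-sided, over 43653 probes, with Westfall-Young adjustment from 100 splits of the cows and Benjamini-Hochberg beside it. Exact permutation tests used all 924 splits, and correlations 100000 resamples, two-sided. The procedure was tested on simulated data. The genes and lists were chosen with earlier results of these data known. Named genes were all list genes, pathway and marker genes with an unadjusted p under 0.05, the highest and lowest of each pathway list, and the 5 genes most like SREBF1. HMGCS1, ACSS1, FABP4, LEP, CS, MPC1, MPC2, HACD3, NFYC, FBXW7, ME1 and LPL and the other genes most like SCD were chosen after their values were seen. So were the within-slide values, the relations with SCD by probe, with marker lists and with array brightness, and the quantile relations. The same holds for FABP4, VWF and USF1 without single cows, and for LUM, COL1A1, COL1A2, VWF and USF1 with slide as a block. Alternatives were other normalizations, probe filters, slide as a block, an eBayes trend, the mean over probes and leaving out each cow. Precision was limited by 6 cows per group. RT-qPCR and proteomics were not analysed here. The gene with the lowest value in 1 pathway list is not reported here.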

Additional observations from a re-analysis of the deposited data

Results flagged for a closer look

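Of 30 groups of 6 cows that were examined for a single distant value, 2 held one, where chance alone gives about 1 in 20. INSIG1 in CONT cow 8027 read 1.1, while the nearest CONT cow read 2.24 and the highest 2.80. The mean log2 level of the endothelial markers in the same cow was -1.68, with the nearest CONT cow at 0.14 and the highest at 0.52. Without CONT cow 8027, the FC of INSIG1 stayed negative and its unadjusted limma p was 0.0788.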

How the results depend on the processing

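The count of genes called by Westfall-Young or Benjamini-Hochberg was 0 under every alternative run, for the list and for the whole array, with 377 to 1739 probes at an unadjusted limma p under 0.05. Of 144 values of single genes under the 16 alternatives that can move an FC, 135 kept their direction and 9 turned. With slide as a block, the number of genes with a higher mean in REST went from 2 to 0, since ACACA went to -0.17 and SREBF1 to -0.09. Leaving out 1 cow at a time gave 1 to 4 genes with a higher mean (4 without REST cow 1018). The FC then ran from -0.93 to 0.23 for SCD (0.23 without REST cow 1018), from -0.70 to 0.10 for ACSS2 (0.01 without CONT cow 1024, 0.10 without REST cow 1018) and from -0.12 to 0.30 for SREBF1. SREBF1 turned without CONT cow 0055 (-0.05), CONT cow 8027 (-0.12), REST cow 0049 (-0.09) and REST cow 7043 (-0.01). The cause was not tested. Without single cows, ACACA ran from 0.08 (without REST cow 0049) to 0.82 (without CONT cow 0015), ELOVL6 from -0.47 (without CONT cow 0015) to -0.02 (without REST cow 0049), THRSP from -0.47 (without CONT cow 8027) to -0.05 (without CONT cow 1024), ACLY from -0.31 to -0.09 and SCAP from -0.12 to -0.04. The mean over all probes gave -0.41 for THRSP, and normexp gave 0.24 for ACACA. INSIG1 stayed between -1.03 and -0.44, and the list median between -0.242 and -0.09. The median of the sterol-responsive list stayed between -0.338 and -0.126. Without single cows, the medians of the acetate and citrate supply list ran from -0.324 to 0.190. With slide as a block that median was -0.368 (-0.067 without the block), and the NADPH supply median was 0.036 (-0.09 without it). No paired analysis was possible because the cow numbers differ between the groups. Probes near background, as for THRSP, limit what can be seen.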
